A study of Mus musculus with 9 samples.

Results

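Complement is a cascade of plasma proteins that tags targets for uptake and recruits inflammatory cells. C1q, built from the chains C1qa, C1qb and C1qc, binds immune complexes and dying cells and starts the classical pathway; C4b and C3 are then cleaved and deposited, factor B (Cfb) and properdin (Cfp) form and stabilise the alternative-pathway convertase, and the cleavage products C3a and C5a act on the receptors C3ar1 and C5ar1. Most complement proteins in plasma come from the liver, whereas C1q is made mainly by macrophages and related myeloid cells.

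These 9 complement genes were chosen by name, with earlier results of these data known. They were found by gene symbol and gene ID in both deposited tables. They were 9 of 21936 genes listed for Lewis lung carcinoma (LLC) cells and 9 of 22060 for bone-marrow-derived macrophages (BMDM). LLC is an established mouse lung tumour line. All 9 libraries came from C57BL mice or cells, and each group held 1 library. The macrophage groups were GM-BMDM after 4 h of tunicamycin, M-BMDM after 4 h of tunicamycin, GM-BMDM without it and M-BMDM without it, where GM-BMDM and M-BMDM are the names the labels give to both kinds of culture. Tunicamycin blocks N-linked glycosylation and causes stress of the endoplasmic reticulum. The LLC groups had 24 h in medium from GM-BMDM or from M-BMDM, and a further LLC library had no such medium. Those macrophages had been kept with tunicamycin for 12 h (stressed medium) or without it (unstressed medium) and washed, and the fresh serum-containing medium was collected 16 h later. The labels do not say how many mice gave the marrow or which factors the cultures received.

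With 1 library per group, a difference between a pair of libraries has no replicate check. Folds between libraries are ratios of CPM (read counts scaled to library size, with TMM factors within a table), and their 95% exact intervals cover counting error only. A log2 difference between libraries is on the log2(CPM + 1) scale, which understates the change of low genes. Tests came from an additive model over the libraries of 1 table, fitted with edgeR's quasi-likelihood method and adjusted by Benjamini-Hochberg over all genes tested. Its error term is the departure from additivity, with 1 residual degree of freedom per gene shared over genes, so its p-values do not measure the spread between cultures.

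Library totals were 37695079 to 42751176 counts in BMDM and 15020068 to 17128471 in LLC, so that 3 counts were worth 0.07 to 0.08 CPM in BMDM and 0.175 to 0.2 CPM in LLC. The complement genes took 0.2137% of all counts in GM-BMDM with tunicamycin, 0.6537% in M-BMDM with tunicamycin, and, without it, 0.2213% in GM-BMDM and 0.859% in M-BMDM. They took between 0.001763% and 0.008791% in LLC. Of 10 macrophage markers, all 10 reached 1 CPM in every BMDM library. In LLC, 3 or 4 of the 10 reached 1 CPM in each library, with Cd14 at 10.9 to 16.8 CPM, Mertk at 8.06 to 15.8 CPM and Lyz2 at 2.73 to 5.01 CPM, and 3 of the 10 (Ptprc, Adgre1 and Tyrobp) had 0 counts in all 5 libraries.

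All 9 genes lie on the minus strand of GRCm38. The C1q chains form a cluster on chromosome 4, where C1qa spans chr4:136895917-136898803, C1qc spans chr4:136889804-136893065 and C1qb spans chr4:136880129-136886187, with 2851 and 3616 bases between neighbours. On chromosome 17, C3 spans chr17:57203970-57228136, C4b chr17:34728380-34743882 and Cfb chr17:34856374-34862518. Cfb lies 85 bases from C2, and an annotated readthrough gene, Gm20547, which was listed at 0 counts throughout, shares 6107 bases with it. Cfp spans chrX:20925454-20931555, C3ar1 chr6:122847138-122856161 and C5ar1 chr7:16246743-16259540. C4b has a near-identical neighbour copy, C4a, which was not listed in the tables, so the C4b counts are uncertain.

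The promoter-side sequences of C1qb and C3 are shown because these genes had the highest level per length in macrophages and the change of interest in LLC cells. Each is the 250 bases before the RefSeq start on the minus strand of GRCm38.p6, at chr4:136886201-136886450 for C1qb and at chr17:57228137-57228386 for C3. Capitals mark GAGGAA, the core bound by PU.1, a factor of myeloid cells, in C1qb, and TTGCNNAA, a C/EBP-type element, in C3.
C1qb: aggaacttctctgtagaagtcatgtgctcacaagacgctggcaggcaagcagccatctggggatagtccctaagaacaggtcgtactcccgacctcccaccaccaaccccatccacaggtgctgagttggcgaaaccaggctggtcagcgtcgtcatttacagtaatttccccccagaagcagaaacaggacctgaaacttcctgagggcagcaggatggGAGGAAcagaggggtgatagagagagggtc
C3: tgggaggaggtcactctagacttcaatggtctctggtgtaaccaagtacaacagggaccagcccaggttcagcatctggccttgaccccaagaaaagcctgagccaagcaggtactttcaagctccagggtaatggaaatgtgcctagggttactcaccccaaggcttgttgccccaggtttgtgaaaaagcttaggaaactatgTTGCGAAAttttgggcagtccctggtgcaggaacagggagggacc

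GAGGAA stood 25 to 30 bases before the C1qb start, and TTGCNNAA stood 38 to 45 bases before the C3 start. Of the 6 complement genes that the RefSeq promoter table held (C1qb, C1qc, C3, Cfp, C3ar1 and C5ar1), 2 had GAGGAA on either strand (C1qb and C1qc), against 23.3% of 32851 promoters of the same length. TTGCNNAA was found in 1 of the 6, C3, against 9.56% of promoters. An NF-kB-type and an interferon-response pattern were also searched in the same windows, and their matches are not reported here; the motifs shown were thus kept after all matches had been seen. These matches describe letters in a window and are not evidence of binding.

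The classical-pathway initiator C1q was lower in GM-BMDM than in M-BMDM, with and without tunicamycin. C1qa had 99.1 CPM in GM-BMDM and 532 CPM in M-BMDM with tunicamycin, and 121 CPM in GM-BMDM and 856 CPM in M-BMDM without it. C1qb had 326 and 1439 CPM in GM-BMDM and M-BMDM with tunicamycin, and 392 and 2456 CPM in GM-BMDM and M-BMDM without it. C1qc had 197 and 1138 CPM in GM-BMDM and M-BMDM with tunicamycin, and 234 and 1711 CPM in GM-BMDM and M-BMDM without it. For each chain both GM-BMDM libraries were below both M-BMDM libraries, and the untreated M-BMDM library was the highest of the 4. The share of all genes separated in this way is not given, and in the fit 25% of the 11049 genes fell in GM-BMDM and 25.4% rose. In the untreated pair the chains were 7.08-fold (6.87 to 7.3), 6.26-fold (6.15 to 6.37) and 7.31-fold (7.15 to 7.47) lower in GM-BMDM for C1qa, C1qb and C1qc. In the pair with tunicamycin they were 5.37-fold, 4.41-fold and 5.78-fold lower. All 3 fell in the additive fit, with a log2 fold change ± SE of -2.62 ± 0.15 for C1qa (adjusted p = 1.6e-05), -2.39 ± 0.17 for C1qb (adjusted p = 4.1e-05) and -2.70 ± 0.15 for C1qc (adjusted p = 1.4e-05).

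Per length, in the deposited FPKM, C1qb was the 11th highest gene of the untreated M-BMDM library (2232 FPKM), C1qc the 27th (875.9 FPKM) and C1qa the 29th (813.4 FPKM). In untreated GM-BMDM the same chains stood at ranks 94 (344.9 FPKM), 354 (115.9 FPKM) and 373 (111.1 FPKM). The order C1qb, C1qc, C1qa held in all 4 libraries. The chains assemble into C1q in equal numbers. The C1qb level per length was 3.15 times that of C1qa in GM-BMDM with tunicamycin, 2.59 times in M-BMDM with tunicamycin, and, without it, 3.10 times in GM-BMDM and 2.74 times in M-BMDM. The C1qa level per length was 0.87 to 0.96 times that of C1qc over the 4 libraries. The ratio of C1qb to C1qa was a little higher in both GM-BMDM libraries, and that of C1qa to C1qc was nearly even throughout.

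**Figure D1:**
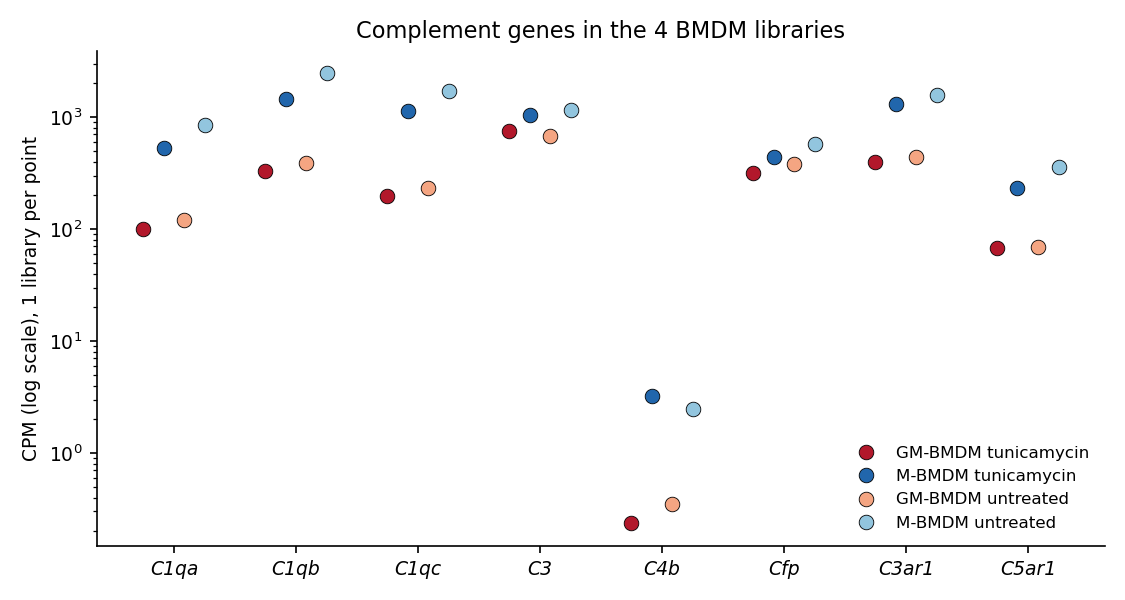
CPM of the 8 complement genes that averaged at least 1 CPM, in each of the 4 BMDM libraries, on a log axis with 1 point per library. For every gene shown both GM-BMDM points lie below both M-BMDM points, with C1qb at 326 and 392 CPM in GM-BMDM against 1439 and 2456 CPM in M-BMDM. The share of all genes that lie so is not given.

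C3, the protein on which all complement pathways converge, differed less between the kinds of macrophage. C3 had 754 CPM in GM-BMDM and 1033 CPM in M-BMDM with tunicamycin, and 680 CPM in GM-BMDM and 1165 CPM in M-BMDM without it. Properdin (Cfp), which stabilises the alternative-pathway convertase, had 314 and 437 CPM in GM-BMDM and M-BMDM with tunicamycin, and 381 and 579 CPM in GM-BMDM and M-BMDM without it. Both genes were abundant in all 4 libraries, and the GM-BMDM libraries were again the lower ones. C3 was 1.37-fold lower in GM-BMDM with tunicamycin and 1.71-fold (1.69 to 1.74) lower without it, and Cfp was 1.39-fold and 1.52-fold (1.49 to 1.55) lower. Both fell in GM-BMDM in the additive fit, with a log2 fold change of -0.62 ± 0.14 for C3 (adjusted p = 0.0094) and -0.54 ± 0.12 for Cfp (adjusted p = 0.0085). The call of Cfp was lost when the model had no tunicamycin term (log2 fold change -0.55, adjusted p = 0.054).

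C4b, the classical-pathway component that forms the C3 convertase with C2, was near the floor. It had 10 counts (0.236 CPM) in GM-BMDM and 137 counts (3.25 CPM) in M-BMDM with tunicamycin, and 14 counts (0.348 CPM) in GM-BMDM and 92 counts (2.47 CPM) in M-BMDM without it. It was 13.8-fold (7.27 to 29.4) lower in GM-BMDM with tunicamycin and 7.1-fold (4.02 to 13.5) lower without it, and fell in the fit (log2 fold change -3.28 ± 0.39, adjusted p = 0.00054). C4b passed the filter of 1 CPM on average only through its M-BMDM libraries, so its fall follows in part from the filter. Factor B, the protease of the alternative-pathway convertase, had 5 and 2 counts in GM-BMDM and M-BMDM with tunicamycin, and 2 and 7 counts in GM-BMDM and M-BMDM without it. Cfb stayed under the filter of 1 CPM on average and was not compared. The macrophage libraries held at least 314 CPM of C3 and of Cfp beside at most 3.25 CPM of C4b and 7 counts of Cfb.

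Both anaphylatoxin receptors were lower in GM-BMDM. C3ar1, the receptor of C3a, had 395 and 1318 CPM in GM-BMDM and M-BMDM with tunicamycin, and 436 and 1561 CPM in GM-BMDM and M-BMDM without it. C5ar1, the receptor of C5a, had 68 and 232 CPM in GM-BMDM and M-BMDM with tunicamycin, and 69.2 and 358 CPM in GM-BMDM and M-BMDM without it. For both receptors the GM-BMDM libraries lay below the M-BMDM libraries. The share of all genes separated in this way is not given. C3ar1 was 3.34-fold (3.28 to 3.4) lower in GM-BMDM with tunicamycin and 3.58-fold (3.52 to 3.64) lower without it. C5ar1 was 3.42-fold (3.28 to 3.56) lower with tunicamycin and 5.16-fold (4.96 to 5.38) lower without it. Both receptors fell in the fit, with a log2 fold change of -1.79 ± 0.13 for C3ar1 (adjusted p = 4.6e-05) and -2.07 ± 0.17 for C5ar1 (adjusted p = 7.9e-05).

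Of the 9 genes, 8 passed the filter in BMDM and 8 of these 8 fell in GM-BMDM, where 25% of the 11049 genes tested fell. The genes were chosen with earlier results of these data known, and the C1q chains are neighbours with alike profiles. The counts here therefore describe the list and do not test it. C4b counts here and among the genes at least 2-fold lower, although it passed the filter only through its M-BMDM libraries. With a filter of 5 CPM on average, which dropped C4b, 7 of 7 fell, and 2421 of all 9597 genes fell. The median log2 difference of the 8 was -1.77 with tunicamycin and -2.10 without it, against -0.04 and -0.03 over all genes compared. At least 2-fold lower were 6 of 8 in the pair with tunicamycin (7.82% of all genes) and 6 of 8 in the untreated pair (7.02% of all genes). At least 2-fold higher were 0 of 8 in the pair with tunicamycin (12.6% of all genes) and 0 of 8 in the untreated pair (12.4% of all genes).

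Markers of other cell types were also unequal between the kinds of macrophage. Summed over 10 neutrophil markers, GM-BMDM had 1610 CPM and M-BMDM 31.9 CPM with tunicamycin, and GM-BMDM had 1682 CPM and M-BMDM 50.4 CPM without it. Mmp8 alone made up 1485 CPM of the sum in GM-BMDM with tunicamycin and 1459 CPM in GM-BMDM without it. The other 9 summed to 124 CPM in GM-BMDM and 6.18 CPM in M-BMDM with tunicamycin, and to 223 CPM in GM-BMDM and 4.74 CPM in M-BMDM without it. All 10 were higher in GM-BMDM in both pairs, although Ly6g, a defining marker, had at most 0.571 CPM in any BMDM library. With tunicamycin, the 6 dendritic cell markers summed to 25 CPM in GM-BMDM and 1.18 CPM in M-BMDM. Without it they summed to 51.4 CPM in GM-BMDM and 1.21 CPM in M-BMDM. All 6 were higher in GM-BMDM without tunicamycin, and 5 with it. Flt3 was the exception, and had at most 0.174 CPM in any BMDM library. The 6 markers of mast cells, basophils and eosinophils summed to 105 CPM in GM-BMDM and 1.28 CPM in M-BMDM with tunicamycin, and to 137 CPM in GM-BMDM and 1.66 CPM in M-BMDM without it. Siglecf made up most of the sum in GM-BMDM (73.5 CPM with tunicamycin and 93.9 CPM without it). The other 5 summed to 31.8 CPM in GM-BMDM and 0.853 CPM in M-BMDM with tunicamycin, and to 43 and 1.05 CPM without it. Most of that in GM-BMDM was Kit, at 25.5 CPM with tunicamycin and 35.6 CPM without it. The 5 epithelial markers, nearly all of it Cdh1, summed to 32.3 CPM in GM-BMDM and 0.237 CPM in M-BMDM with tunicamycin, and to 74 CPM in GM-BMDM and 0.107 CPM in M-BMDM without it. The lymphocyte and fibroblast lists summed to at most 2.73 CPM in any BMDM library. The 10 macrophage markers summed to 38982 CPM in GM-BMDM and 33570 CPM in M-BMDM with tunicamycin, and to 41176 CPM in GM-BMDM and 53148 CPM in M-BMDM without it. Lyz2 carried these sums, and the other 9 summed to 5843 CPM in GM-BMDM and 11720 CPM in M-BMDM with tunicamycin, and to 6222 CPM in GM-BMDM and 14013 CPM in M-BMDM without it. Of the 10, 7 were lower in GM-BMDM with tunicamycin and 8 without it, while Laptm5 and Tyrobp were higher in GM-BMDM in both pairs and Lyz2 in the pair with tunicamycin. The part of other cells in the complement difference was not tested, and in bulk RNA fewer cells of a type and less RNA per cell cannot be told apart.

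Most of the other complement genes tested rose instead. Of 45 other complement genes, 17 were tested in BMDM, 10 rose and 3 fell in GM-BMDM (25.4% of all genes rose). This list too was chosen with earlier results of these data known. The integrin chains that form the receptors for deposited C3 fragments were among those that rose. Itgax, the chain of complement receptor 4, had 1059 CPM in GM-BMDM and 15.6 CPM in M-BMDM with tunicamycin, and 1100 CPM in GM-BMDM and 11.4 CPM in M-BMDM without it (log2 fold change 6.34 ± 0.19, adjusted p = 2.6e-06). Itgam, the chain of complement receptor 3, rose by 1.59 ± 0.15 (adjusted p = 0.00017), and their shared partner Itgb2 rose by 1.92 ± 0.17 (adjusted p = 0.00011). The proteases that C1q carries also rose, with C1ra at 2.89 ± 0.15 (adjusted p = 1.1e-05) and C1s1 at 3.17 ± 0.48 (adjusted p = 0.0016). C1s1 was near the floor, with 1.96 CPM in GM-BMDM and 0.118 CPM in M-BMDM with tunicamycin. Without it C1s1 had 1.94 CPM in GM-BMDM and 0.322 CPM in M-BMDM, so it passed the filter only through GM-BMDM. With a filter of 5 CPM on average, 12 of the 45 were tested, 8 rose and 2 fell, and C1s1 was not among them. C1ra had 29.1 CPM in GM-BMDM and 3.67 CPM in M-BMDM with tunicamycin, and 26.7 CPM in GM-BMDM and 3.84 CPM in M-BMDM without it, so the C1r transcript was high where the C1q chains were low. C5ar2, the second C5a receptor, rose by 1.06 ± 0.29 (adjusted p = 0.02), and the fluid-phase regulator Clu rose by 4.61 ± 0.23 (adjusted p = 1.1e-05). Clu had 10.1 CPM in GM-BMDM and 0.403 CPM in M-BMDM with tunicamycin, and 11.7 and 0.483 CPM without it. It too passed the filter only through GM-BMDM. Among those that fell were the surface regulator Cd46 (-1.36 ± 0.33, adjusted p = 0.013) and the lectin-pathway ficolin Fcna (-0.92 ± 0.16, adjusted p = 0.0029). DESeq2 did not call Cd46, and a fit of kind alone did not call C5ar2.

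**Figure D2:**
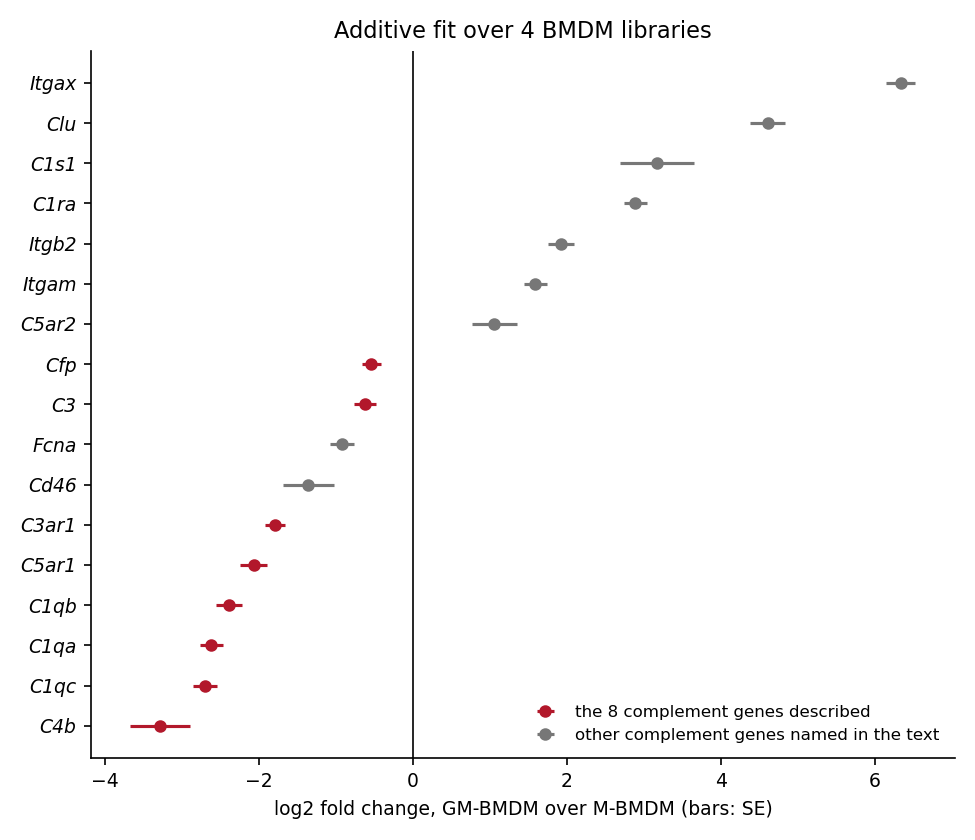
Log2 fold change of GM-BMDM over M-BMDM, with its SE, in the additive fit for the 8 complement genes described (red) and the other complement genes named in the text (grey). All red points lie below 0, from Cfp at -0.54 to C4b at -3.28, while Itgax stands at 6.34.

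After 4 h of tunicamycin the C1q chains were lower in both kinds of macrophage, and by more in M-BMDM, but the test over both kinds made no call. In GM-BMDM with tunicamycin, C1qa was 1.22-fold (1.17 to 1.27), C1qb 1.2-fold (1.18 to 1.23) and C1qc 1.19-fold (1.15 to 1.22) lower than in untreated GM-BMDM. In M-BMDM with tunicamycin the same chains were 1.61-fold (1.58 to 1.64), 1.71-fold (1.69 to 1.72) and 1.5-fold (1.49 to 1.52) lower than in untreated M-BMDM. In the fit over both kinds the log2 fold change was -0.49 ± 0.14 for C1qa (adjusted p = 0.46), -0.52 ± 0.16 for C1qb (adjusted p = 0.46) and -0.42 ± 0.14 for C1qc (adjusted p = 0.47).

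With tunicamycin, C5ar1 was 1.02-fold (0.966 to 1.07) lower in GM-BMDM, within counting error, and 1.54-fold (1.5 to 1.58) lower in M-BMDM. C3ar1 was 1.1-fold lower in GM-BMDM and 1.18-fold lower in M-BMDM, and Cfp was 1.22-fold lower in GM-BMDM and 1.32-fold lower in M-BMDM. C3 had a log2 difference of 0.15 in GM-BMDM and of -0.17 in M-BMDM, and C4b had -0.13 in GM-BMDM and 0.29 in M-BMDM. None of the 8 reached a 2-fold difference in either kind (of all genes, 0.0634% passed it upward and 0.443% downward in GM-BMDM, and 1.18% upward and 0.29% downward in M-BMDM). The response in GM-BMDM minus that in M-BMDM was 0.59 for C5ar1, 0.50 for C1qb, 0.40 for C1qa and 0.34 for C1qc, against a median of -0.00 over all genes, and was not tested, since 1 library per group leaves no error for it.

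In the fit of tunicamycin, 0 of 8 complement genes and 0 of all 11049 genes were called (0%), while 4 of the 8 and 1103 of all genes had an unadjusted p under 0.05. DESeq2 called 52 genes, 19 higher and 33 lower, and 0 of the 8. Total-count scaling in place of TMM shifted the median of all genes by 0.10 in M-BMDM, and the C3 difference there was -0.07 with it.

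**Figure D3:**
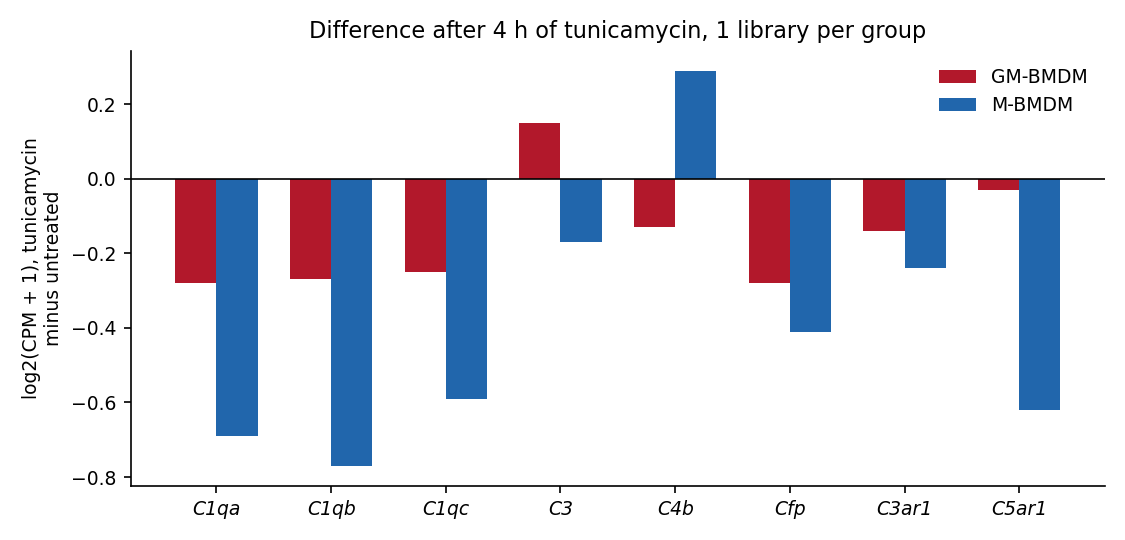
Difference in log2(CPM + 1) between the tunicamycin and the untreated library, for GM-BMDM (red) and M-BMDM (blue), with 1 library per group and no error bars. The bars of the C1q chains and C5ar1 are short in GM-BMDM, with C1qb at -0.27, and reach further down in M-BMDM, with C1qb at -0.77.

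By the distance between centred log2(CPM + 1) profiles over the 4 BMDM libraries, C1qc was at 0.11 and C1qb at 0.23 from C1qa. The non-complement genes nearest to C1qa were Lst1 (0.15), Ralgps2 (0.18), Fxyd2 (0.20), Akr1b8 (0.25) and Wwp1 (0.25). C5ar1 was at 0.59, C3ar1 at 0.89, C3 at 2.05 and Cfp at 2.08 from C1qa. C3 and Cfp were 0.35 apart. The 4 points of a profile share 2 kinds of culture and 2 treatments, so a distance describes those 4 values alone.

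In LLC cells, C3 was the one of the 9 genes that was called, and it was high with GM medium. C3 had 1313 counts (82.7 CPM) in stressed GM medium, 612 counts (39.8 CPM) in unstressed GM medium, 198 counts (11.7 CPM) in stressed M medium, 196 counts (12.6 CPM) in unstressed M medium and 207 counts (13.6 CPM) in untreated cells. Both GM medium libraries were above the other 3, and the M medium libraries were close to the untreated one. Stressed GM medium gave 6.06-fold (5.23 to 7.06) the untreated level, a rank of 9 among 11190 genes, of which 1.48% were at least 2-fold higher, and unstressed GM medium gave 2.92-fold (2.49 to 3.43), a rank of 19, where 1.04% of genes were at least 2-fold higher. Stressed M medium gave 0.859-fold (0.703 to 1.05) and unstressed M medium 0.927-fold (0.759 to 1.13) the untreated level, both within counting error, where 1.22% and 0.5% of genes were at least 2-fold higher. These comparisons share the untreated library.

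Set against M medium, C3 was 7.06-fold (6.08 to 8.24) higher in stressed GM medium than in stressed M medium, which was the highest difference of the 11190 genes compared between those libraries (0.206% were at least 2-fold higher). It was 3.14-fold (2.67 to 3.71) higher in unstressed GM medium than in unstressed M medium, rank 3 of 11190 (0.125% at least 2-fold higher). C3 was 2.08-fold (1.89 to 2.29) higher in stressed than in unstressed GM medium (0.393% of genes at least 2-fold higher), and 0.926-fold (0.756 to 1.13) in stressed against unstressed M medium (0.411% of genes). The stress difference of C3 was 1.04 in GM medium and -0.10 in M medium, a difference of 1.14 in log2 units that ranked 24 of 11190 genes and could not be tested.

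**Figure D4:**
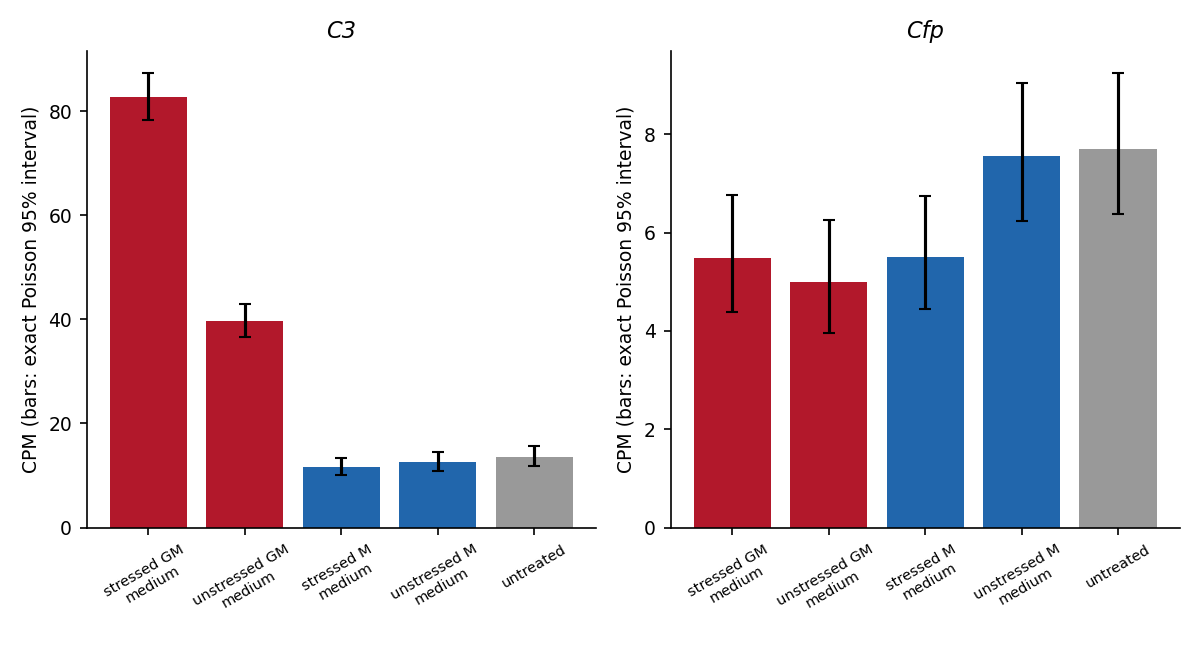
CPM of C3 and Cfp in the 5 LLC libraries, with exact Poisson 95% intervals for counting error, 1 library per bar and GM media in red, M media in blue and untreated cells in grey. C3 stands at 82.7 and 39.8 CPM in the GM media and between 11.7 and 13.6 CPM elsewhere, while Cfp lies between 5 and 7.71 CPM in all 5.

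In the additive fit over 5 LLC libraries, 2 of the 9 genes passed the filter, C3 and Cfp. C3 rose by 2.28 ± 0.11 in GM medium against M medium (adjusted p = 1e-94), the lowest p of 11190 genes, of which 2.21% rose. Averaged over GM and M media, C3 rose by 0.67 ± 0.10 in stressed against unstressed medium (adjusted p = 6.7e-09, where 12.5% of genes rose). The mean of the 4 media was 0.96 ± 0.13 above untreated cells (adjusted p = 1.6e-11, where 24.9% of genes rose). These averages join unlike media, since C3 in each M medium was within counting error of untreated cells and of the other M medium. These p-values are too small for C3, since the fit gave all genes 1 shared spread, and C3's own departure from additivity did not enter its error. Under DESeq2, which estimates a spread for each gene, the GM against M difference of C3 was 2.24 ± 0.55. Its unadjusted p was 5.3e-05, rank 25 of 11190 genes. The adjusted p was NA, and 0.024 without independent filtering. DESeq2 called C3 neither for stress (adjusted p = 0.77) nor for the 4 media against untreated (adjusted p = 0.32), and a fit of medium against none alone did not call it either (adjusted p = 0.38).

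Cfp, the only other complement gene of the 9 above the filter in LLC, was low and was not called. It had 87 counts (5.48 CPM) in stressed GM medium, 77 (5 CPM) in unstressed GM medium, 93 (5.5 CPM) in stressed M medium, 117 (7.55 CPM) in unstressed M medium and 117 (7.71 CPM) in untreated cells. The unstressed M medium library was as high as the untreated one, and the other 3 were lower. Its log2 fold change was -0.30 ± 0.21 for GM against M medium (adjusted p = 0.6), -0.18 ± 0.21 for stress (adjusted p = 0.59) and -0.40 ± 0.23 for media against untreated (adjusted p = 0.13), so it was not called in any of the 3, where 2.32%, 10.9% and 21.9% of all genes fell.

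The C1q chains and receptors were at the floor in LLC. C1qa and C1qc had 0 counts in all 5 libraries, where 3 counts would be up to 0.2 CPM, and C1qb had 1 count in stressed GM medium, 4 in stressed M medium, 0 in each unstressed medium and 3 in untreated cells. C3ar1 had 8, 7, 6, 3 and 9 counts in stressed GM, unstressed GM, stressed M and unstressed M medium and in untreated cells. C4b had 1 count in stressed M medium and 0 elsewhere, and Cfb and C5ar1 each had 1 count in unstressed M medium and 0 elsewhere. Differences in these 7 genes were not detectable at this depth. The stressed GM medium library held 0 counts of C1qa and C1qc and 1 of C1qb. The GM-BMDM libraries held these genes at 99.1 to 392 CPM. The 10 macrophage markers summed to 29.2 CPM in stressed GM, 27 CPM in unstressed GM, 30.6 CPM in stressed M and 31.1 CPM in unstressed M medium and to 41.7 CPM in untreated cells, of which Cd14 and Mertk together made up 24, 23.1, 24.4, 25.3 and 32.6 CPM in the same order. Whether the LLC libraries held any macrophage RNA was not tested.

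Of the 45 other complement genes, 12 were tested in LLC. Cr1l, a membrane regulator of C3 convertases in mouse, rose in stressed medium (0.63 ± 0.07, adjusted p = 8.5e-17), with 84.1 CPM in stressed GM, 52 CPM in unstressed GM, 83.7 CPM in stressed M and 56.1 CPM in unstressed M medium and 50.7 CPM in untreated cells. Unlike C3, its level was alike in both stressed media. Over the list, 3 rose and 3 fell with stress (12.5% and 10.9% of all genes), 0 rose and 1 fell in GM against M medium (2.21% and 2.32% of all genes), and 1 rose and 4 fell in media against untreated (24.9% and 21.9% of all genes). DESeq2 called fewer, with 1 higher and 0 lower for stress, 0 and 0 for GM against M medium, and 0 higher and 2 lower for media against untreated. Cr1l was the call for stress, and Clu and C1s1 were the calls for the media. Among those that fell with the media were Clu (-0.74 ± 0.07, adjusted p = 9.8e-27) and the C1 protease C1s1 (-0.70 ± 0.09, adjusted p = 1.9e-12).

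By the same distance over 5 LLC libraries, the genes with a pattern nearest to that of C3 were Mmp13 (1.07), Cxcl5 (1.13), Mmp3 (1.16), Col7a1 (1.31) and Col8a1 (1.51). None of these was as near as the genes nearest to C1qa in BMDM (0.15 to 0.25 over 4 libraries). Mmp13, a collagenase, had 27.2 CPM in stressed GM, 10.1 CPM in unstressed GM, 6.03 CPM in stressed M and 5.29 CPM in unstressed M medium and 9.09 CPM in untreated cells. Cxcl5, a neutrophil-attracting chemokine, had 6.99, 1.49, 0.71 and 1.16 CPM in stressed GM, unstressed GM, stressed M and unstressed M medium and 1.12 CPM in untreated cells. The stromelysin Mmp3 had 43.9, 23.7, 11.8 and 16.5 CPM in the same media in that order, and 16.8 CPM in untreated cells. Each of these 3 was highest in stressed GM medium, but Mmp13 and Cxcl5 were close to the untreated level in unstressed GM medium, where C3 was 2.92-fold. Col7a1 had 38.5, 60.1, 12.4 and 16.4 CPM in the same media in that order, and 16.6 CPM in untreated cells. Col8a1 had 28.1, 16.4, 15.7 and 5.74 CPM, and 9.68 CPM in untreated cells, so it was higher with stress in M medium too.

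**Figure D5:**
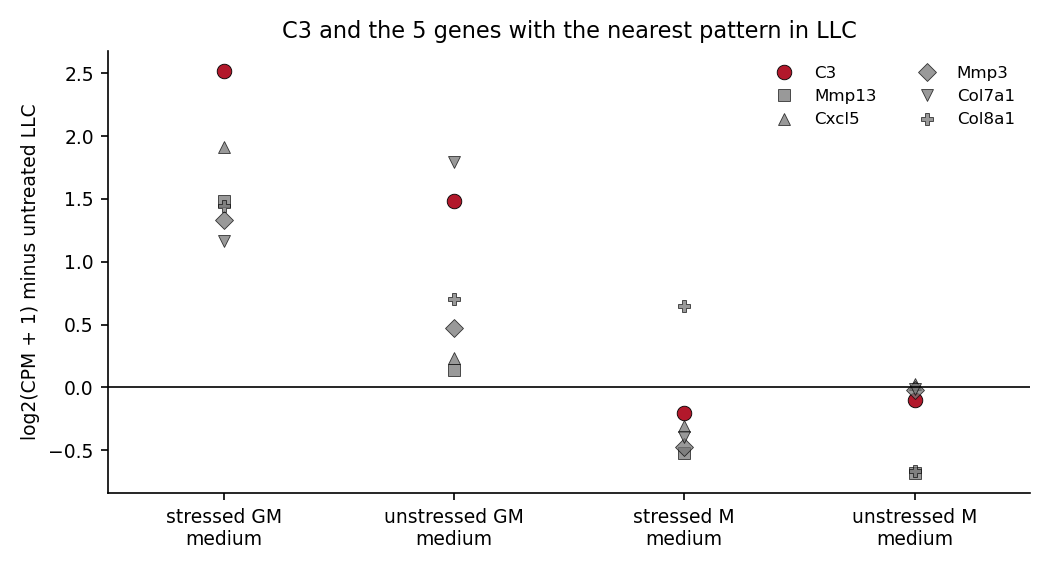
Difference in log2(CPM + 1) from the untreated library for C3 (red) and the 5 genes nearest to it (grey), in the 4 LLC libraries with conditioned medium, 1 library per point. C3 is at 2.52 in stressed GM medium and at -0.20 in stressed M medium, and Col7a1 is the gene that is higher in unstressed than in stressed GM medium.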

How the data were processed

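RNA-seq read counts per gene were deposited by the authors in 1 table for LLC and 1 for BMDM, with FPKM beside them, per the file headers; all counts were whole numbers, and FPKM was used for levels between genes. Cutadapt 1.15, HISAT2 and TopHat2 2.1.0 are named in the submitters' processing notes; no counter, strand setting or build was found in the labels or headers. Coordinates are GRCm38, which the LLC table matched for 21604 of 21817 IDs found in GENCODE M21. A stray line-end character in the last column of the LLC table was stripped. TMM scaling was done within each table; genes averaging at least 1 CPM were tested (edgeR 4.0.16 quasi-likelihood with Benjamini-Hochberg adjustment, R 4.3.3; DESeq2 1.42.0 as an alternative), and the scripts were tested on simulated data. Folds used exact intervals (95%) and log2 differences a pseudocount of 1 CPM. Named genes were the 9 members, the counts of 45 other complement genes and the 5 nearest by profile. The members and lists were chosen with earlier results of these data known. No columns were left unmapped (0). The labels' groups defined all comparisons, of which 12 were between pairs of libraries. One further result that the rule for named genes selects is not reported here.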

Additional observations from a re-analysis of the deposited data

Results flagged for a closer look

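In 4 cases, in 3 complement genes, the log2 difference under the same treatment had opposite signs in GM and M samples. None of these differences was tested, and in 3 of the 4 cases the smaller difference was within counting error: C4b in GM-BMDM, C3 in LLC with M medium and Cfp in LLC with GM medium. C3 in BMDM had a log2 difference after tunicamycin of 0.15 in GM-BMDM and -0.17 in M-BMDM, a difference of 0.32. C4b had -0.13 in GM-BMDM and 0.29 in M-BMDM, a difference of -0.42, on 10 to 137 counts. C3 in LLC had a log2 difference between stressed and unstressed medium of 1.04 for GM medium and -0.10 for M medium, a difference of 1.14. Cfp in LLC had 0.11 for GM medium and -0.40 for M medium, a difference of 0.51, on 77 to 117 counts.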

How the results depend on the processing

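No paired analysis was possible because each group held 1 library. Among the values called between pairs of libraries, the count of complement genes at least 2-fold higher in stressed over unstressed GM medium became 0 with a pseudocount of 5 CPM, where C3 is 2.08-fold. DESeq2, with and without independent filtering (the version without it was chosen after seeing the data), gave 19 higher and 33 lower genes for tunicamycin in BMDM under both, 1009 and 1000 higher and 985 and 982 lower genes for media against untreated, 13 and 17 higher and 23 and 14 lower genes for GM against M medium, and 313 and 300 higher and 169 and 156 lower genes for stress of the medium. No filter beyond 1 count gave 48 higher and 53 lower genes for tunicamycin in BMDM, and medium against none alone gave 846 higher and 771 lower. The complement genes called higher for media against untreated were 0 under DESeq2, with and without independent filtering, and under medium against none alone, and for stress of the medium they were 0 under DESeq2 in both versions. For GM against M medium the count was 0 under DESeq2 with independent filtering, where the adjusted p of C3 is NA, and 1 without it. DESeq2 also called fewer of the other complement genes in LLC. C4b's log2 fold change for tunicamycin was -0.01 under DESeq2, in both versions, against 0.16. The cause was not tested. Among the counts with a defined adjusted p, the other 237 stayed within 1.5 times or were equal. Of the values of single genes, 276 kept their call or stayed within counting error, 35 moved beyond it in the same comparison, and 6 lost a call, which were Cfp without the tunicamycin term and C3 in LLC under DESeq2 or medium against none alone. Depth limits the 7 complement genes near 0 in LLC and Cfb and C4b in BMDM.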
